A study of Mus musculus with 2 samples.

Results

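The 10 circadian clock genes Per1, Per2, Per3, Cry1, Cry2, Arntl, Clock, Dbp, Tef and Bhlhe40 were followed in mouse uterus at gestation day 2.5 (G2.5), before implantation. They were picked by gene symbol from a table of 14678 genes, and all 10 were found. Digital gene expression (DGE) profiling had been run on 1 library per condition, each made from the pooled RNA of 3 uteri. Both groups were adult littermates of one double transgenic genotype, VEGFtetO/tetO/beta-AKtg/wt, in which tet operator sites sit in the VEGF promoter and a β-actin promoter drives the tetR-Krab repressor throughout the body. The Dox+ group ate doxycycline chow and is labelled VEGF-normal. The Dox- group ate chow without doxycycline and is labelled VEGF-repression, so that the drug and the level of VEGF cannot be told apart. Since each condition has 1 library, the differences below lack a check by replicates, and no test between conditions could be made.

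The mammalian clock is a transcription loop that runs in nearly every cell. ARNTL (also called BMAL1) and CLOCK form a dimer that binds E-box sequences and turns on the Per and Cry genes, and the PER and CRY proteins then accumulate and shut the dimer off. Side loops through the nuclear receptors REV-ERB and ROR set the rhythm of Arntl, and the PAR bZIP factors DBP, TEF and HLF carry the rhythm to D-box sequences of output genes. In most peripheral tissues of the mouse Arntl runs about opposite in time to Dbp, the Rev-erb genes and the Per genes. The uterus has such a clock of its own.

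A library's copy number of a gene is its count of clean tags, and TPM is that number scaled to the clean tags of its library, with no correction for length. Counted copies came to 4437506 for the Dox+ library (74.1% of its clean tags) and 4218459 for the Dox- library (72.2%). Ratios are Dox- over Dox+ of copies per clean tag, on the log2 scale unless a fold is named, and their 95% intervals are exact Clopper-Pearson intervals that cover counting error only. Vegfa, the repressed gene, had a log2 ratio of -0.95 (95% interval -1.27 to -0.63). All 8 listed genes of uterine identity were present, and Hoxa10, the homeobox gene of the uterine stroma, had 3120 copies in Dox+ and 1060 in Dox-. Of these 8 genes 2 were called higher and 5 lower by the rule given below, and their sum was 1677 and 904 TPM. Of all 6547 genes to which that rule could be applied, it called 18.8% higher and 17.8% lower. The tissue markers themselves differed between the libraries. The 10 epithelial markers had a summed level of 1024 TPM in the Dox+ library against 1700 TPM in the other, with 5 of 9 tested genes higher. The 8 smooth muscle markers summed to 6531 and 4501 TPM, with 7 of 8 lower. The stromal markers went both ways, with 3 of 9 higher and 2 lower and sums of 8887 and 11439 TPM. The sums were 217 and 150 TPM for endothelium, 293 and 218 TPM for fat, and 652 and 234 TPM for skeletal muscle, where Tnnc2 had 21 and 0 copies. Leukocyte markers summed to 82.2 and 121 TPM, those of erythrocytes to 11.0 and 35.6 TPM, and those of ovary and oviduct to 6.68 and 6.84 TPM. The near-equal sums of ovary and oviduct hid opposite values. Ovgp1 had 25 and 2 copies and Foxj1 had 3 and 25, and both intervals excluded 0. Among erythrocyte markers Hba-a1 had 26 and 114 copies, while Alas2, named after its values were seen, had 21 and 9. The part of these markers in the results below was not tested, and in bulk RNA fewer cells of a type and less RNA per cell cannot be told apart.

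Most of the clock genes did not differ between the libraries beyond counting error, and Per2 and Bhlhe40 did. For 8 of the 10 genes the 95% interval of the ratio held 0. Per2 and Bhlhe40 had intervals above 0, and no gene had an interval below it. Over the 9025 genes of the table with a combined copy number between 29 and 648, the range of the clock genes, the interval excluded 0 for 49.8%, above it for 25.9% and below it for 23.9%. Over all 13727 genes with a ratio these shares were 50.9%, 26.3% and 24.6%. The median absolute log2 ratio was 0.21 over the 10 clock genes and 0.46 over those 9025 genes. Genes were called here with 200 or more copies over both libraries and an absolute log2 ratio above 0.5. These are limits of the study, which also set limits on the p-value, the FDR and the fold change, and adding an FDR limit of 0.05 or a fold of at least 1.5 left the calls among the clock genes at 1. By this rule 4 of the 10 genes could be called and 1 of these, Bhlhe40, was called higher. The same rule called 36.6% of the 6547 genes that passed the filter, 18.8% higher and 17.8% lower. A call in 1 of 4 genes does not stand out from that background. Without the copy filter 3 of the 10 genes passed the threshold, Per2 and Bhlhe40 above and Per3 below, beside 47.5% of all genes, 24.0% above and 23.5% below.

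**Figure D1:**
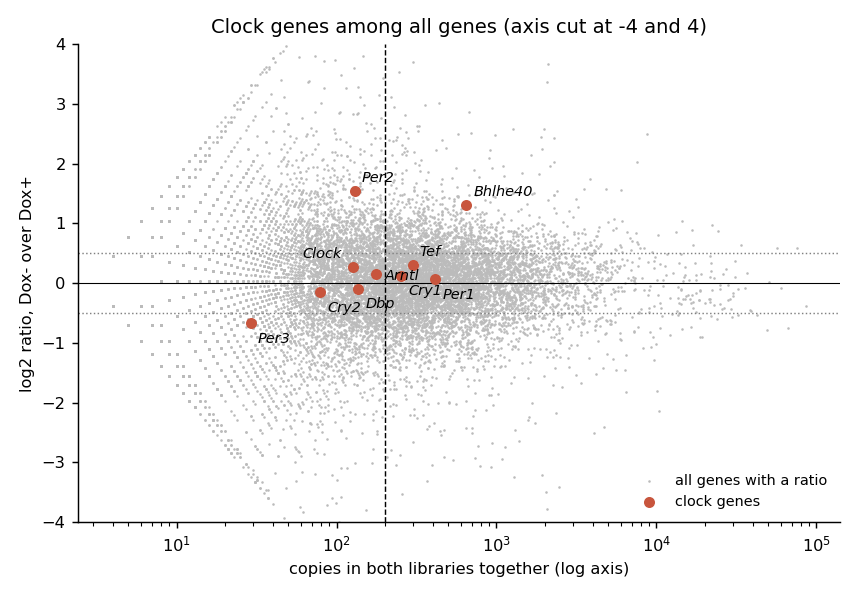
Log2 ratio of Dox- over Dox+ (vertical axis) against the copies of both libraries together (horizontal log axis) for each gene of the table with a ratio (grey) and for the 10 clock genes (red); the dashed line marks 200 copies, the dotted lines mark log2 ratios of -0.5 and 0.5, and genes beyond -4 or 4 are not drawn. Per2 and Bhlhe40 lie above 1, Per3 lies below -0.5 at 29 copies, and the other 7 genes lie between -0.15 and 0.30.

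The activators of the loop did not differ beyond counting error. Arntl (chromosome 7, 120350979 to 120457636, plus strand, on NCBIM37) had 85 copies in Dox+ and 92 in Dox-, a log2 ratio of 0.15 (-0.29 to 0.59). Clock (chromosome 5, 76639992 to 76733817, minus strand), its partner and a histone acetyltransferase, had 58 and 68 copies, a log2 ratio of 0.26 (-0.26 to 0.80). Both intervals held 0, and the upper bound for Clock was 1.74-fold. Npas2, which can take the place of CLOCK in the dimer and is not among the 10 genes, had 19 and 6 copies. It was thus 3.09-fold lower in Dox-, but with an interval of 1.19 to 9.46 and far fewer copies than the filter asks for.

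Among the repressors Per2 alone had an interval that excluded 0. Per1 (chromosome 11, 68908719 to 68923462, plus strand), a period gene that answers within minutes to hours to hormonal and light cues, had 204 copies in the Dox+ library, or 34.1 TPM, and 208 copies or 35.6 TPM in the Dox- library. Its log2 ratio of 0.06 had a narrow interval, -0.22 to 0.35. Cry1 (chromosome 10, 84594447 to 84647799, minus strand), the strongest repressor of the ARNTL and CLOCK dimer, had 122 and 130 copies and a log2 ratio of 0.13 (-0.24 to 0.49). Cry2 (chromosome 2, 92243803 to 92274200, minus strand) had 42 and 37 copies. Its log2 ratio of -0.15 ranged from -0.83 to 0.52. The intervals of these 3 repressors held 0.

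Per2 (chromosome 1, 93312561 to 93355907, minus strand), the period gene whose loss disrupts daily rhythms in mice, had 34 copies in Dox+ and 96 in Dox-. These were levels of 5.68 TPM (3.93 to 7.94) and 16.4 TPM (13.3 to 20.1), so that Per2 was higher in Dox- and the intervals did not overlap. The level in Dox- was 2.89-fold that in Dox+, with an interval of 1.94 to 4.41. The combined 130 copies are below the filter of 200, so Per2 is not counted among the called genes. With the filter at 100 combined copies, Per2 and Bhlhe40 passed the threshold, beside 39.0% of 8856 genes, 20.1% above and 18.9% below. Per3 (chromosome 4, 150377761 to 150418774, minus strand), the period gene least needed for the rhythm, had only 18 and 11 copies, and its log2 ratio of -0.68 (-1.90 to 0.48) was within counting error. The copies of Per2 per copy of Per1 were 0.167 in Dox+ and 0.462 in Dox-, a ratio of 2.77 (exact 95% interval 1.76 to 4.42) that needs no library size. Per1 and Per2, which the same dimer drives, thus differed in their ratios beyond counting error.

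Promoter sequences from RefSeq were matched for 8 of the 10 genes, with 13 start sites, and not for Per2 and Bhlhe40. The 250 bases before each start were searched on both strands. The motifs were the E-box CACGTG bound by ARNTL and CLOCK, the D-box TTANGTAA bound by DBP, TEF and HLF, and the ROR response element (RORE) bound by REV-ERB and ROR. An E-box stood in 4 of the 13 promoters, those of Cry1, 1 of the 2 of Per1 and both of Tef, and in 6.02% of 32851 promoters of this length. The promoter of Per3 held 2 D-boxes, where 2.06% of all promoters held at least 1, and none of the 13 held the RORE, present in 2.04%. No matches overlapped. For each gene with a match 1 promoter is printed, to show the kind of site through which the loop is known to act. They are written 5′ to 3′ on the strand of the gene, with matched motifs in capitals, on build GRCm38.p6.
Per1, chr11:69098699-69098948, plus strand: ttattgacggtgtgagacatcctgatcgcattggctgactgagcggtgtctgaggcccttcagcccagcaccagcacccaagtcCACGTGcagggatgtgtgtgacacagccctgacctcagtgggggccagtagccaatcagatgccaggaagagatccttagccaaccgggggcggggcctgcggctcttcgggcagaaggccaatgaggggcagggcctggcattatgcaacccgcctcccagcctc
Cry1, chr10:85185055-85185304, minus strand: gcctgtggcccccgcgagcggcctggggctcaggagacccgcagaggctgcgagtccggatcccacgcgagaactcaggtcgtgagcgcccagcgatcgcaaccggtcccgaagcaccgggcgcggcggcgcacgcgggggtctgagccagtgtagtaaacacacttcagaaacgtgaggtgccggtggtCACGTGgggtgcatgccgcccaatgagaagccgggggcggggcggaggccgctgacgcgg
Tef, chr15:81811164-81811413, plus strand: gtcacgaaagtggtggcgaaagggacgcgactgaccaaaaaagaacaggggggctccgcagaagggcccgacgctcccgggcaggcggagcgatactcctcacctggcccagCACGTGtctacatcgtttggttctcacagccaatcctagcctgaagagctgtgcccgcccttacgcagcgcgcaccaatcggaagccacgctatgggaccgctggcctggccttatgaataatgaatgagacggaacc
Per3, chr4:151044666-151044915, minus strand: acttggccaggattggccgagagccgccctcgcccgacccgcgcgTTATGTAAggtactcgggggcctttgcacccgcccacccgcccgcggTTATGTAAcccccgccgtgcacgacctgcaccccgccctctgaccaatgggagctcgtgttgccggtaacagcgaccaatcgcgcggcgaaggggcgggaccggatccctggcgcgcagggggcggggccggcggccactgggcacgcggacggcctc
The E-box began 166 bases before the start in Per1, 60 bases before it in Cry1 and 138 bases before it in this Tef promoter (127 in the other), and the D-boxes of Per3 began 205 and 158 bases before its start. A match describes letters in this window and does not show that a factor was bound there.

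The PAR bZIP factors, through which the clock reaches detoxification and metabolic genes, did not differ beyond counting error. Dbp (chromosome 7, 52960458 to 52965525, plus strand) is a clock output with a wide daily swing in liver and other organs. It had 71 copies in Dox+ and 65 in Dox-, a log2 ratio of -0.09 (-0.60 to 0.41). Tef (chromosome 15, 81632851 to 81657291, plus strand), a flatter relative, had 136 and 163 copies and a log2 ratio of 0.30 (-0.04 to 0.64). Hlf, the remaining PAR bZIP gene, had 14 and 18 copies. Nfil3, which represses through the same D-box, had 91 and 82 copies and a log2 ratio of -0.12 (-0.56 to 0.33). All 4 genes of this list had intervals that held 0. The Dbp gene shares exon sequence with Sphk2 on the opposite strand, which had a log2 ratio of -0.05, and Tef, Cry2 and Bhlhe40 also overlap opposite-strand transcripts in their exons. The authors searched tags of both strands, and whether the deposited copies hold sense tags only was not given in the sources used here.

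Bhlhe40 (chromosome 6, 108610623 to 108616919, plus strand) encodes DEC1, a repressor that competes with ARNTL and CLOCK for E-boxes and that also answers to hypoxia, hormones and differentiation. Its 190 copies in Dox+ stood against 458 without doxycycline. The level rose from 31.7 TPM (27.4 to 36.6) to 78.4 TPM (71.4 to 85.9). The rise was 2.47-fold, with an interval of 2.08 to 2.94. Ranked among all genes detected in a library, Bhlhe40 moved from percentile 70.4 to 87.4 and became the most copied of the 10 genes in Dox-. The summed epithelial markers were also higher in that library and the summed smooth muscle markers lower, and their part in the values of Bhlhe40 and Per2 was not tested. Gm129, the symbol in the table for Ciart, a small repressor of the same dimer, had 5 and 7 copies, too few for a comparison. Bhlhe41, the sister gene of Bhlhe40, was listed but was not found under the symbols searched.

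Of the nuclear receptors that feed back on Arntl, Nr1d1 (REV-ERBα) had 227 copies in Dox+ and fell to 140. Its log2 ratio was -0.66 (-0.98 to -0.35). Its relative Nr1d2 (REV-ERBβ) had 87 and 95 copies and a log2 ratio of 0.16 (-0.27 to 0.60). Rorb, an activator of Arntl, had 13 and 16 copies, with an interval that held 0. Nr1d1 shares exon sequence with Thra on the opposite strand, and Thra had 31 and 42 copies. Over the 5 lists of clock genes, 18 of 21 listed genes were in the table. Of these, 5 passed the filter, 1 was called higher, Bhlhe40, and 1 lower, Nr1d1, which is near the 36.6% called among all tested genes.

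**Figure D2:**
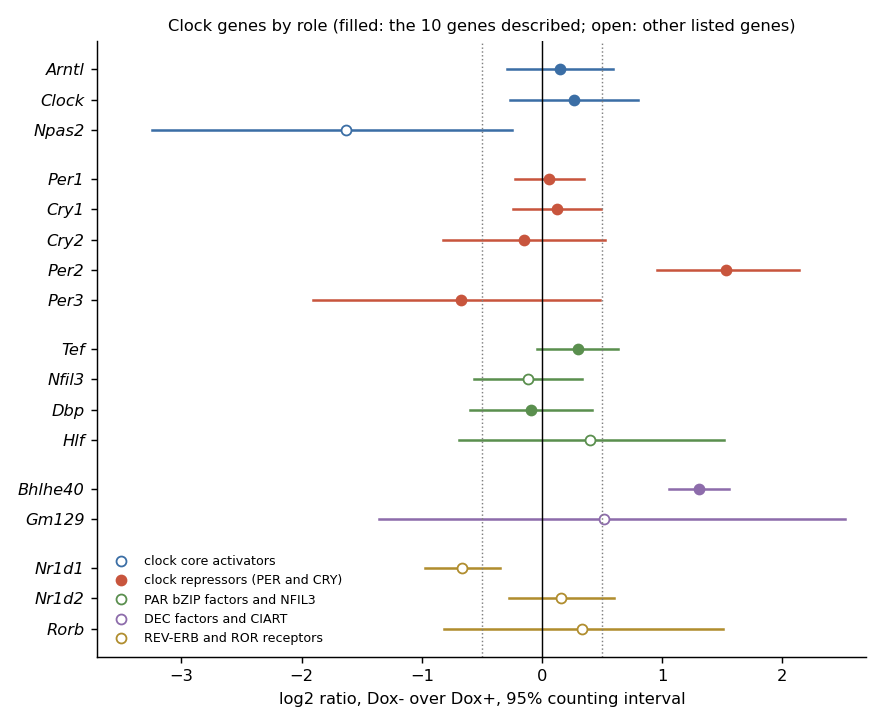
Log2 ratio of Dox- over Dox+ (horizontal axis) with 95% counting intervals (bars) for clock genes grouped by role; filled points are the 10 genes described and open points are other listed genes, and dotted lines mark -0.5 and 0.5. The bars of Per2 and Bhlhe40 lie above 0, those of Nr1d1 and Npas2 lie below 0, and the other bars cross it.

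Within the Dox+ library the order of copies ran from Per1 (204) through Bhlhe40, Tef, Cry1, Arntl, Dbp, Clock, Cry2 and Per2 to Per3 (18). Only 3 of the 9 neighbouring pairs in that order differed beyond counting error, which were Bhlhe40 and Tef, Cry1 and Arntl, and Per2 and Per3. In Dox- Bhlhe40 came first and Per2 moved from the ninth place to the fifth, between Cry1 (130) and Arntl (92). There 5 of the 9 neighbouring pairs differed. A tag library samples a fixed site of each transcript, and the median copy number in Dox+ did not rise with length. It was 92 in the fifth of genes with the shortest transcripts and 82 in the fifth with the longest. Since copies did not rise with length, dividing by the length of the longest annotated transcript gives another scale and not a correction. On it Bhlhe40 led in both libraries with 61.0 and 147 copies per kb, ahead of Per1 with 43.7 and 44.5. Per3 was lowest on this scale as well, with 3.00 and 1.83 copies per kb. By copies, among all genes detected in Dox+, the 10 genes ranked between percentile 21.5 for Per3 and 72.1 for Per1.

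**Figure D3:**
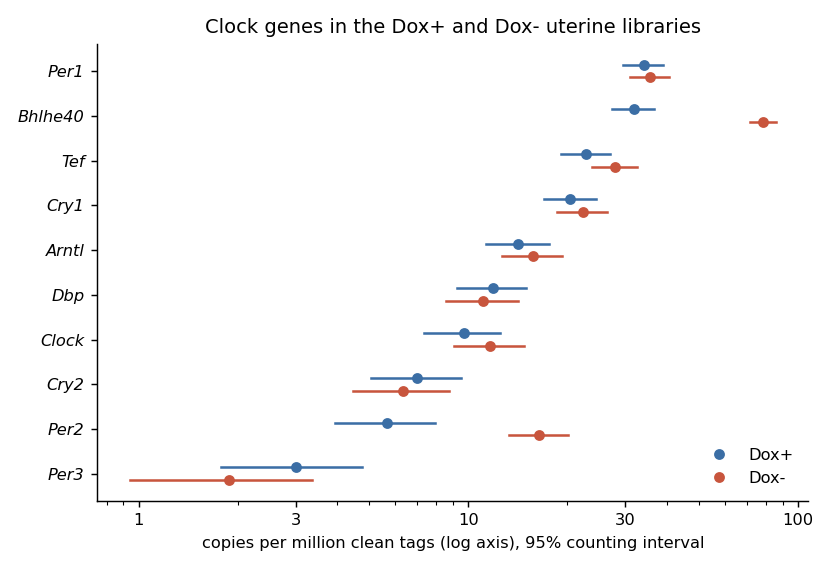
Level in TPM (horizontal log axis) of the 10 clock genes in the Dox+ (blue) and Dox- (red) libraries, with exact 95% counting intervals (bars), ordered by the level in Dox+. The bars of the libraries overlap for 8 genes and are apart for Bhlhe40, at 31.7 and 78.4, and Per2, at 5.68 and 16.4.

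Whether the pools looked shifted in phase was examined with ratios inside a library, which need no scaling between libraries. Dbp and Arntl run opposite to each other in peripheral clocks, so that their ratio changes with the time of day. Such a ratio takes the same value on its rise and on its fall, so like ratios do not show like phase. The ratio was 0.835 copies of Dbp per copy of Arntl in Dox+ and 0.707 in Dox-. The ratio of these ratios was 0.85, with an exact 95% interval of 0.53 to 1.36, which held 1. The summed arms were compared in the same way. The 9 genes of the Dbp-like arm in the table (Nr1d1, Nr1d2, Dbp, Tef, Hlf, Per1, Per2, Per3 and Gm129) had 796 copies in Dox+ and 803 in Dox-. The 5 genes of the Arntl-like arm (Arntl, Npas2, Clock, Nfil3 and Cry1) had 375 and 378. The ratio of the arms was 2.12 in both libraries, and the ratio of ratios was 1.0 (0.84 to 1.19). With only the arm genes that are among the 10 it was 1.07 (0.87 to 1.33). These were Dbp, Tef, Per1, Per2 and Per3 over Arntl, Clock and Cry1. Bhlhe40 and Cry2 belong to neither arm, so the arm ratios leave them out. The arm ratios depend on which genes were listed. Among genes in neither arm, the rhythmic gene Usp2 had 319 copies in Dox+ and 59 in Dox-, while Bhlhe40 had 190 and 458. Arms with genes added were not tried.

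The sums hid genes on opposite sides. Against Arntl, Per2 went from 0.40 to 1.04 copies, a ratio of ratios of 2.61 (1.56 to 4.4), while Nr1d1 went from 2.67 to 1.52, a ratio of 0.57 (0.39 to 0.83). The other 7 genes of the Dbp-like arm had intervals that held 1. Bhlhe40, in neither arm, went from 2.24 to 4.98 copies per copy of Arntl, a ratio of ratios of 2.23 (1.56 to 3.17). Cry2, also in neither arm, had a ratio of ratios of 0.81 (0.46 to 1.43). Per2 per copy of Nr1d1 was 0.150 in Dox+ and 0.686 in Dox-, a ratio of 4.58 (2.88 to 7.36). Nr1d1 peaks before Per2 in the daily cycle of most tissues. Without Nr1d1 the ratio of the arms became 1.16, and without Per2 it became 0.92. By point values 5 of the 9 genes of the Dbp-like arm had a ratio above 1 against Arntl and 4 below. Since 7 of the intervals held 1, these counts do not settle whether the arm shared a direction. Only Per2 and Nr1d1 had a direction beyond counting error, and theirs were opposite. The hour at which the uteri were collected was not given in the sources used here, and from 1 time point a shift in phase, a change in amplitude and a change in level cannot be told apart. Differences in phase between the 3 animals of a pool would also be averaged out.

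**Figure D4:**
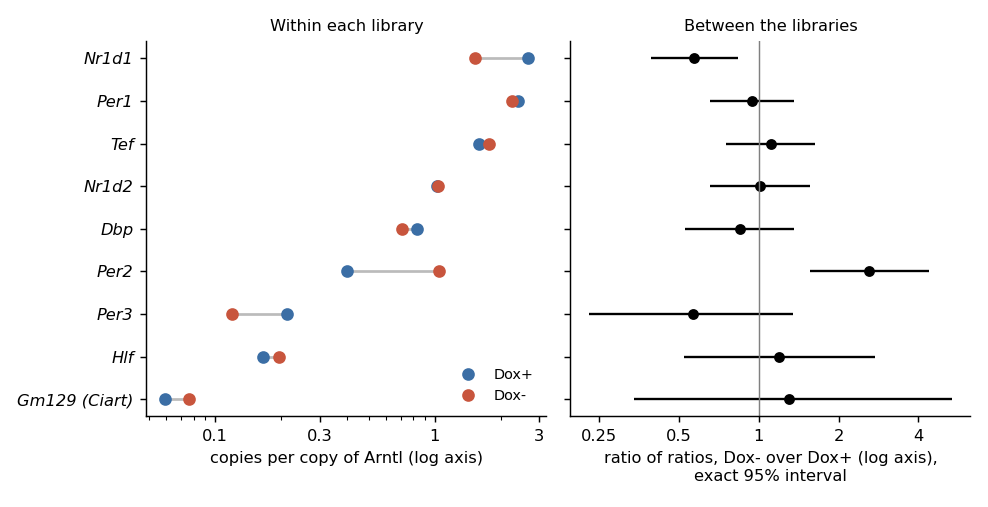
Left: copies of each gene of the Dbp-like arm per copy of Arntl (horizontal log axis) in the Dox+ (blue) and Dox- (red) libraries. Right: the ratio of these ratios, Dox- over Dox+ (log axis), with exact 95% intervals (bars). Per2 at 2.61 lies above 1, Nr1d1 at 0.57 lies below it, and the bars of the other 7 genes cross 1.

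The enzymes that set the stability of PER and CRY went both ways. Of 20 listed genes, all in the table, 16 passed the filter, 2 were called higher and 1 lower, with a median log2 ratio of -0.06, beside 0.03 and 36.6% called over all 6547 tested genes. By counting intervals 6 of the 20 genes lay above 0 and 6 below. Csnk1e, the casein kinase that marks PER for degradation, rose from 69 to 161 copies (log2 ratio 1.26, 0.84 to 1.69). Its close relative Csnk1d, which acts on the same proteins, had 857 and 629 copies and a log2 ratio of -0.41, short of the threshold, and was named after its values were seen. Fbxw11, a ubiquitin ligase subunit that recognises phosphorylated PER, rose from 160 to 239 copies. The largest difference in the list was that of Usp2, a deubiquitinating enzyme of ARNTL, PER1 and CRY1 and itself a rhythmic gene. Usp2 fell from 319 to 59 copies, 5.28-fold (3.99 to 7.09). Its exons overlap those of Rnf26 on the opposite strand, which had a log2 ratio of 0.02.

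Among the 16 listed partners of the PER and CRY complexes 11 passed the filter, 2 were called higher and 2 lower. Id2, an inhibitor of helix-loop-helix factors, fell from 1933 to 888 copies with an interval of -1.20 to -0.97 around a log2 ratio of -1.09. Hdac3, the histone deacetylase recruited by REV-ERB, fell from 398 to 268 copies. Mll1 (Kmt2a), a histone methyltransferase partner of CLOCK, rose from 128 to 195 copies, or 1.56-fold. Over the 8 lists of the clock pathway together 13 of 42 tested genes were called, 5 higher and 8 lower, beside the 36.6% called among all tested genes.

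Of 20 listed outputs of the clock 19 were in the table and 11 passed the filter. None of these was called higher and 5 were called lower, beside 18.8% and 17.8% of all tested genes, with a median log2 ratio of -0.47. By counting intervals, with no filter, outputs lay on both sides, 5 of the 19 above 0 and 8 below, beside 26.3% and 24.6% of all genes. The 5 called lower were Tsc22d3, Klf10, Klf9, Usp2 and Wee1. Wee1 lies outside the naming rule and was added after its values were seen. Wee1, a kinase that holds back entry into mitosis and carries E-boxes, fell from 180 to 65 copies (log2 ratio -1.43, -1.87 to -1.02). Klf10 fell from 328 to 191 copies and Klf9 from 243 to 159. Usp2 stands in the list of stability enzymes as well, and is counted in both.

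Tsc22d3 and Klf9 are also targets of the glucocorticoid receptor, one route by which the body's daily hormone rhythm reaches peripheral clocks. Of 13 listed glucocorticoid-responsive genes 12 were in the table and 8 passed the filter, 6 called lower and none higher, with a median log2 ratio of -1.28, where 17.8% of all tested genes were called lower. Without the filter 7 of the 12 intervals lay below 0 and 2 above it. The 2 were those of Ddit4, an inhibitor of mTOR signalling with 14 and 46 copies, and Cdkn1a, a cell cycle inhibitor with 38 and 69 copies, both named after their values were seen. Mt2, a metallothionein, fell from 8168 to 660 copies. Sgk1, a kinase of sodium transport, fell from 1198 to 187 copies, Errfi1, an inhibitor of EGF receptors, from 859 to 391, and Tsc22d3 from 561 to 198 (log2 ratio -1.47, -1.71 to -1.23). Per1 is on this list too, as a direct target of the glucocorticoid receptor, and its 204 and 208 copies stand beside the 6 called genes. Nfkbia, the inhibitor of NF-κB, was the other tested gene that was not called, with 726 and 745 copies, and was also named after its values were seen. The cause of these differences, hormonal or other, was not tested. The list was chosen with earlier results of these data known.

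The CREB and SRF immediate-early genes, which share cues with the induction of Per1 and Per2, held few genes above the filter. Of 12 listed genes 4 passed it and 1 was called higher, Junb, from 121 to 224 copies (log2 ratio 0.92, 0.60 to 1.25). Fos, below the filter and named after its values were seen, had 25 copies in Dox+ and 116 in Dox-. Of the 10 temperature-responsive genes, a class through which body temperature reaches peripheral clocks, 9 passed the filter, 3 were called higher and 1 lower. Both lists stand beside a background of 36.6% called, 18.8% higher and 17.8% lower, and neither count is read as particular to its list. Hsp90aa1 rose from 1763 to 2573 copies, Hsph1 from 780 to 1235 and Hspa1b from 247 to 351, while Hspb1, a small heat shock protein that is abundant in muscle, fell from 2083 to 772. Cirbp and Rbm3, cold-inducible proteins that follow the daily temperature rhythm, had log2 ratios of 0.25 and 0.30 and were named after their values were seen.

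**Figure D5:**
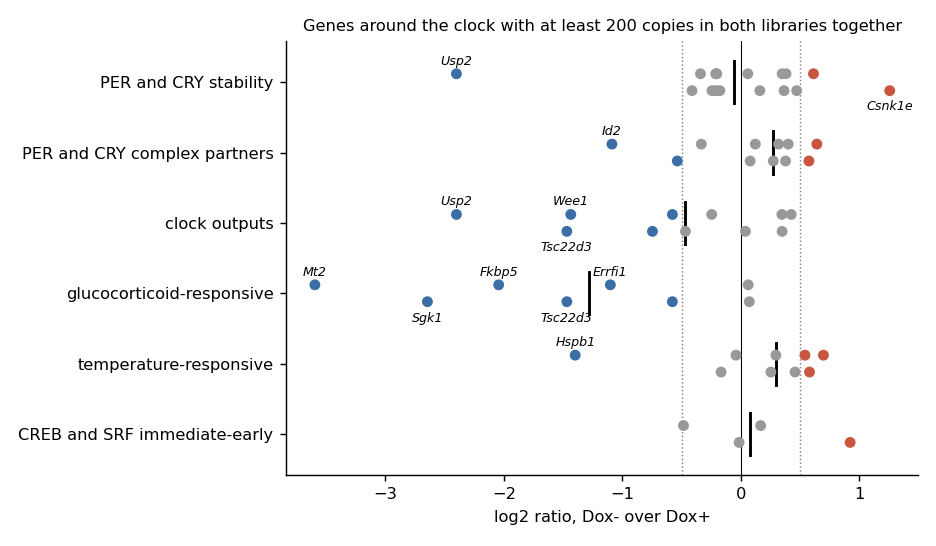
Log2 ratio of Dox- over Dox+ (horizontal axis) of the genes with at least 200 combined copies in 6 lists (rows); black bars mark each list's median, red and blue points are genes called higher and lower, grey points are not called, and genes past 1 in either direction are named. The medians are -1.28 for the glucocorticoid-responsive genes and -0.47 for the clock outputs, and lie between -0.06 and 0.30 for the other 4 lists.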

How the data were processed

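Total RNA of 3 pooled uteri per condition was profiled by DGE with 1 library for each diet. Adaptor-only, low quality and single-copy tags had been dropped by the authors, who aligned the rest to mouse reference mRNA of build mm9 and deposited unambiguous tags per gene as whole-number counts (copy numbers). The labels' processing notes also name CASAVA. The aligner and the restriction enzyme are not given in the sources used here. The labels mention mRNA fragmentation, while the methods describe tag profiling. The deposited TPM values are copies scaled by the authors to the clean tags of a library, without length correction. The deposited log2 ratio, ratio, p-value and FDR of each gene are the authors' own comparison and were not used.

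Library sizes were recovered from the deposited counts and TPM. Genes with at least 200 combined copies and an absolute log2 ratio above 0.5 were called. The study's Audic-Claverie test on the reads compares the libraries, not the conditions, and is an alternative only. A library with 3 copies or fewer was set to 3, and no ratio was taken where both were. The clock genes and the 23 hand-written lists were chosen with earlier results of these data known. Named were the clock genes and, of each other list, up to 4 called genes with the most copies or otherwise the 2 most copied. Genes outside this rule are marked in the text, except Tnnc2, named as a marker listed at 0 copies, and Sphk2, Thra and Rnf26, named because their exons overlap those of named genes. Some genes that the rule takes in are not reported here. Gene positions are from GENCODE on NCBIM37 (mm9). The methods were tested on simulated data that held counting error only, so that test does not bear on variation between pools. Python 3.11.15, numpy 2.4.6, scipy 1.17.1, pandas 2.3.3, matplotlib 3.10.9, R 4.3.3 and edgeR 4.0.16 were used.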

Additional observations from a re-analysis of the deposited data

How the results depend on the processing

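Under other library sizes (summed copies, TMM factors or the median ratio), a pseudocount of 1 and the deposited TPM, all 50 recomputed ratios of the 10 clock genes stayed within their counting intervals, and none changed sign. Each other library size shifts all genes by a common amount, here small beside the intervals. The main library sizes were recovered from the deposited TPM. These settings could thus hardly have moved a ratio out of its interval. The count of called clock genes was 1. It became 2 from 100 combined copies and 3 without a filter, with Per2 and then Per3 added, 2 by intervals that exclude 0 (an alternative chosen after seeing the data), and 0 in edgeR's exact test with an assumed coefficient of variation of 0.4 between pools. The count over the clock pathway, 13 genes, became 24 without a filter, 6 at a fold change of at least 2, 40 by intervals, and 4 and 0 with assumed coefficients of variation of 0.2 and 0.4. Bhlhe40 was among the 4. Over all genes the count of 2399 became 6525, 670, 6984, 321 and 33 under these 5 settings. How much pools of the same condition vary is unknown here, and counting intervals leave it out. Leaving out each gene of the arms in turn gave arm ratios from 0.92 to 1.16. At 18 and 11 copies the interval of Per3 ran from 3.74-fold lower to 1.4-fold higher, so smaller differences were not detectable at this depth. No paired analysis was possible because each condition has 1 library.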

Other observations

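The deposited table assigns 57 genes to rhythmic process, circadian rhythm or circadian behavior, 9 of the 10 clock genes among them and Tef not. This list was added after seeing the data. Of its 48 other genes 22 passed the filter of 200 combined copies, with 3 called higher, 5 called lower and a median log2 ratio of -0.03, beside 36.6% called and a median of 0.03 over all tested genes, so that the share called is near the background. Without the filter, the 45 of them with a ratio had a median absolute log2 ratio of 0.47, the same as the 0.47 of all 13727 genes with a ratio, where the 10 clock genes had 0.21.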
